A study of Mus musculus with 6 samples.

Results

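The expression of arginases, chitinase-like proteins and other genes used as markers of macrophage activation was examined in peritoneal macrophages (PMs) from lupus-prone mice. The 9 genes were Arg1, Arg2, Nos2, Chil1, Chil3, Retnla, Ear2, Cd38 and Il4ra. They were taken by name from the 32879 genes to which the counted RefSeq records could be assigned. Most are in use as markers of alternative activation or encode enzymes of arginine metabolism. The study lists Cd38 among markers of classical activation instead. Of the 9 genes, 6 passed the filter on low counts. PMs from 3 control mice were compared with PMs from 3 diseased-BWF1 mice by RNA-seq, with 1 library per mouse. Control mice were [NZW × BALB/c]F1 animals aged 33, 33 and 30 weeks. Diseased-BWF1 mice were [NZB × NZW]F1 animals aged 31, 31 and 34 weeks, a cross that develops a disease resembling systemic lupus erythematosus without a transgene or an administered agent. According to the methods of the study, diseased mice had antibodies to double-stranded DNA and marked proteinuria, and all mice were female and shared the H2 haplotype. All had an NZW parent, and the cells had been sorted as F4/80+ and CD11b high. The other parent differs between the groups, so that strain and disease cannot be told apart. The comparison asks how the alternative activation programme of PMs differs at the time of overt disease.

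Macrophages exposed to interleukin-4 or interleukin-13 signal through the receptor chain encoded by Il4ra and the transcription factor STAT6, and mouse cells then express Arg1, Chil3 and Retnla. Arginase 1 in the cytosol and arginase 2 in mitochondria split arginine into ornithine and urea, and the inducible nitric oxide synthase encoded by Nos2 uses the same substrate in classically activated cells. The chitinase-like proteins Chil1 and Chil3 bind sugars of the chitin type but lack chitinase activity.

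Total counts ranged from 3629901 to 5003360 per mouse, and 3 counts corresponded to 0.652 to 0.888 CPM, that is, counts relative to the effective size of the library. These floors, like any statement on counting, cover counting error only. All 11 markers of large PMs were detected, and their summed level was 20830 to 23190 CPM in control mice and 20050 to 24130 CPM in diseased-BWF1 mice. The control 3 library stood apart from the other control libraries, with correlations of 0.928 and 0.931 to them against 0.961 between control 1 and control 2. Of the 10505 genes tested, 128 were called (1.22%) with an adjusted p below 0.05 and a change of 1.5-fold or more. The median log2 fold change over all tested genes was 0.01, and over the 6 tested genes of the set it was 0.09.

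Chil1 was the called gene among the 6 tested, and it rose from near absence to a high level in every diseased-BWF1 mouse. Arg2 was lower in every diseased-BWF1 mouse without passing the test. Arg1, Retnla, Cd38 and Il4ra overlapped between the groups, and Chil3, Ear2 and Nos2 had at most 3 counts in any library. Groups that do not overlap were found for 20.9% of all tested genes, with diseased-BWF1 mice higher for 9.81% and lower for 11.1%. An unadjusted p under 0.05 was found for 13.2%. Values below are normalized counts, scaled with DESeq2 size factors, unless another unit is named.

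**Figure D1:**
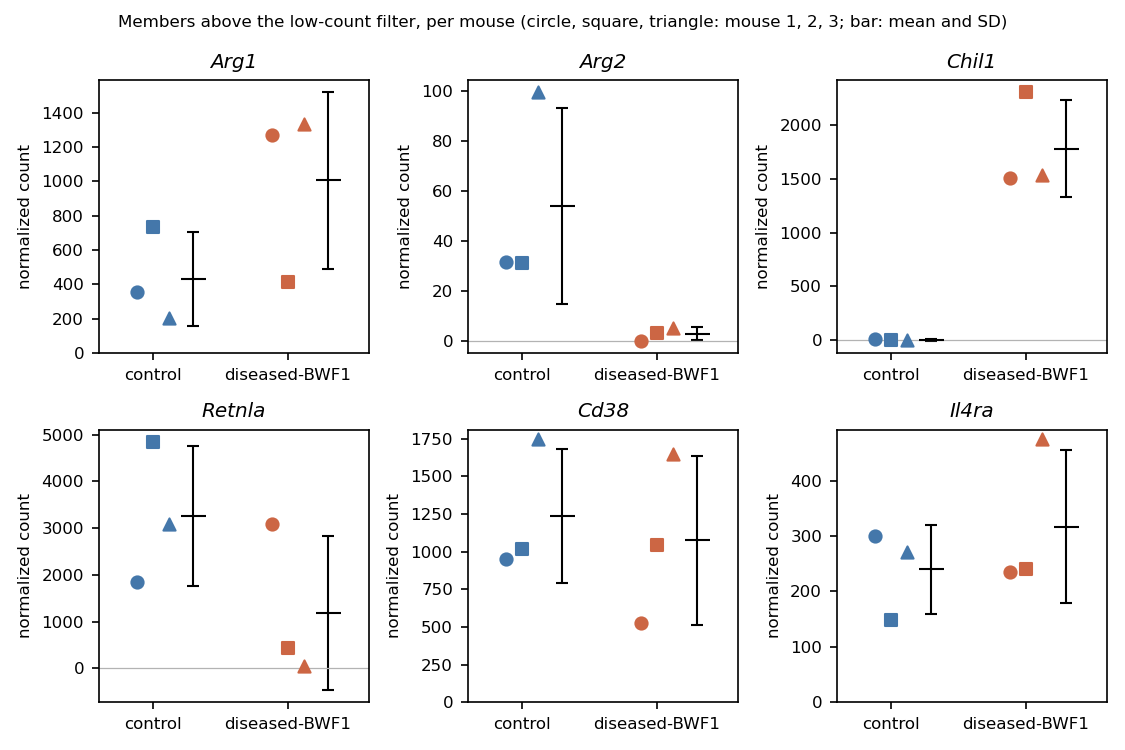
Normalized counts (y axis, a separate linear scale for each gene) of the 6 genes above the low-count filter in control mice (blue) and diseased-BWF1 mice (orange). Circles, squares and triangles are mice 1, 2 and 3, and the black marks give the mean and the SD of 3 mice. Chil1 lies between 1504 and 2302 in the diseased-BWF1 mice and at 12.4 or 0 in the control mice, while Retnla spans 52.4 to 3083 among the diseased-BWF1 mice.

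Arg1, the cytosolic arginase, is encoded at chr10:24915207-24927470 on the minus strand (GRCm38.p6). Its normalized counts were 353, 733 and 205 for the control animals, against 1270, 411 and 1336 for the diseased-BWF1 animals. Diseased mice 1 and 3 were above every control mouse, and diseased mouse 2 lay inside the control range. The means were 430 ± 272 and 1006 ± 516 (SD, n = 3 each), a log2 fold change of 1.22 (SE 0.56, 95% interval -0.09 to 2.53). This difference was not called by the quasi-likelihood test of edgeR after Benjamini-Hochberg adjustment (adjusted p = 0.415). The highest mouse exceeded the lowest 3.58-fold within the control group and 3.25-fold within the diseased group, beside a ratio of 2.34 between the means.

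Arg2, the mitochondrial arginase, is encoded at chr12:79130788-79156301 on the plus strand. Its normalized counts were 31.5, 30.9 and 99.4 in the control mice. They were 0, 3.05 and 5.04 in the diseased-BWF1 mice, all below the lowest control mouse. The means were 53.9 ± 39.4 and 2.70 ± 2.54 (SD, n = 3 each), and the log2 fold change was -4.28 (SE 0.83, 95% interval -6.24 to -2.33). The adjusted p of edgeR's quasi-likelihood test was 0.0686, so that Arg2 missed the threshold. DESeq2 called it with an adjusted p of 5.12e-05, and so did edgeR without the low-count filter (adjusted p = 0.00845). Over 15 alternatives the adjusted p ran from 5.12e-05 to 0.519, and these were the 2 that made the call. DESeq2 called 3.54% of all tested genes, 1.27% higher and 2.28% lower. Without control 3, the highest control mouse, the log2 fold change was -3.50 (adjusted p = 0.132, edgeR). The exact two-sided permutation test gave p = 0.1, the smallest value that 3 mice against 3 allow. In bulk RNA, fewer cells that express a gene and less RNA per cell cannot be told apart. Arg2 overlaps Vti1b and the antisense gene Gm48780, both on the opposite strand, and the libraries were stranded. Vti1b, which encodes a vesicle SNARE protein, had a log2 fold change of -0.74 (SE 0.20) that was not called (adjusted p = 0.17, edgeR).

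Nos2, the inducible nitric oxide synthase, had 0, 2 and 1 counts in the control libraries and 0 in each diseased-BWF1 library. These values are at or under the floor of 3 counts, and no fold change is given. A difference in Nos2 was therefore not detectable at this depth.

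The wider arginine, proline and polyamine pathway comprised 30 listed genes, of which 20 were tested. None of the 20 was called by edgeR, and DESeq2 called 1, Arg2, beside 3.54% of all tested genes. An unadjusted p under 0.05 in edgeR was found for 5, beside 13.2% of all tested genes. The list had a median log2 fold change of 0.03. Groups did not overlap for 8 genes (40.0%), 7 of them lower in diseased-BWF1 mice. Over all tested genes, 20.9% had no overlap, and 11.1% were lower without overlap. Paox, which oxidises acetylated polyamines, had 79.4, 76.3 and 99.4 normalized counts in control mice and 46.5, 36.6 and 53.4 in diseased-BWF1 mice. Every diseased mouse was below every control mouse, with a log2 fold change of -0.91 (SE 0.21, adjusted p = 0.106, edgeR). Among the others lower without overlap were Sat1 and Smox of polyamine turnover, Gatm of creatine synthesis and Gch1 of tetrahydrobiopterin synthesis, with log2 fold changes from -0.74 to -0.19. The gene that was higher without overlap, Aldh18a1, encodes the enzyme that commits glutamate to proline and ornithine synthesis. Its log2 fold change was 0.94 (SE 0.25, adjusted p = 0.153, edgeR). Sat1, Smox, Gatm, Gch1 and Aldh18a1 were named after their values were seen. Odc1, which turns ornithine into putrescine, had a log2 fold change of 0.28 (SE 0.16, adjusted p = 0.525, edgeR).

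Uptake of arginine depends on cationic amino acid transporters, of which 5 of 6 listed genes were tested and none was called by edgeR. An unadjusted p under 0.05 in edgeR was found for 2, beside 13.2% of all tested genes. DESeq2 called 1 higher, beside 1.27% of all tested genes. Slc7a1, the main such carrier of many cell types, had 27.3, 54.6 and 21.7 normalized counts in control mice. In diseased-BWF1 mice it had 90.1, 148 and 94.7, each above every control mouse. The log2 fold change was 1.67 (SE 0.37, adjusted p = 0.0944, edgeR), and over 15 alternatives at the gene level the adjusted p ran from 0.00377 to 0.591. Slc7a6, which exchanges cationic for neutral amino acids, had a log2 fold change of 1.64 (SE 0.54, adjusted p = 0.247, edgeR), also without overlap. Groups did not overlap for these 2 of the 5 genes (40.0%). Over all tested genes, 20.9% had no overlap, and 9.81% were higher without overlap. The other 3 tested transporters of the list had log2 fold changes below 0.

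Chil1, a secreted chitinase-like glycoprotein, is encoded at chr1:134182156-134190031 on the plus strand. Its counts before scaling were 15, 0 and 0 in the control libraries and 1587, 2267 and 1521 in the diseased-BWF1 libraries. Normalized, these were 12.4, 0 and 0 against 1504, 2302 and 1533, so that all control counts came from 1 mouse and the diseased mice differed by at most 1.53-fold. The means were 4.14 ± 7.17 and 1780 ± 453 (SD, n = 3 each). The log2 fold change was 8.50 (SE 0.75, 95% interval 6.74 to 10.26), with an adjusted p of 0.0057 in edgeR's quasi-likelihood test. Against the 2 control mice at 0, taken at 3 counts per library, the diseased mean was at least 546-fold higher. Chil1 was called with each mouse left out in turn, 6 of 6 fits, and the exact two-sided permutation test gave the smallest possible p of 0.1. Without control 3 the log2 fold change was 8.01 (adjusted p = 0.0176, edgeR). Without control 1, when all control counts were 0, the fitted value of 13.76 depends on the prior count of the model and is no bound. Of all tested genes, 0.4% were called higher in diseased-BWF1 mice. The 2 Chil1 records moved together, the predicted record holding 3.53% to 3.88% of the Chil1 counts of the diseased libraries.

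**Figure D2:**
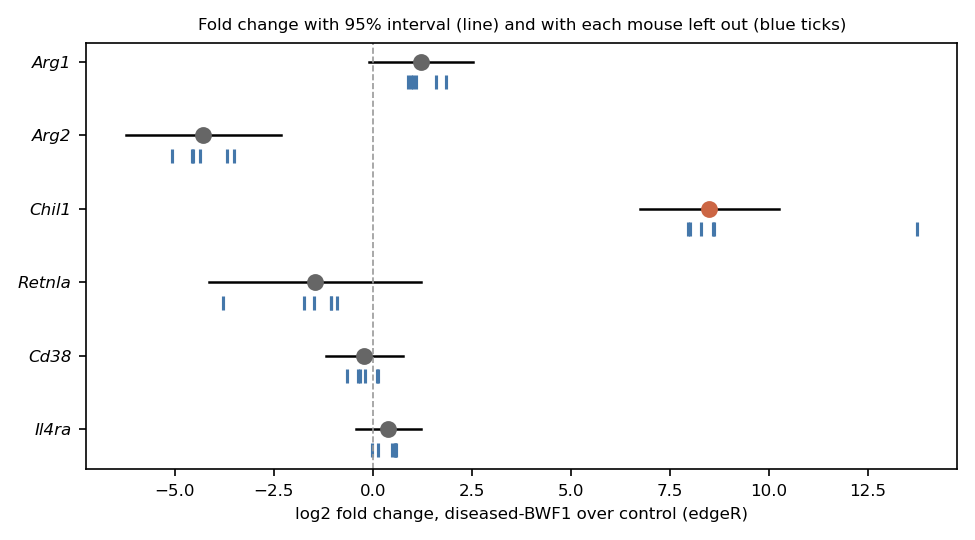
log2 fold change of diseased-BWF1 over control mice (x axis) for the 6 tested genes, with the 95% interval of the edgeR model as a line and the value after leaving out each mouse as blue ticks. Chil1 (orange, the called gene) stays between 7.97 and 13.76 with any mouse left out, and the intervals of Arg1, Retnla, Cd38 and Il4ra include 0.

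The 250 bases upstream of the Chil1 start site, chr1:134181906-134182155 on the plus strand, are shown from RefSeq GRCm38.p6 because this gene carries the difference. Capitals mark the match to a C/EBP-type motif, TTNNGNAA searched on both strands, with its first base at position -52 from the start site.
Chil1: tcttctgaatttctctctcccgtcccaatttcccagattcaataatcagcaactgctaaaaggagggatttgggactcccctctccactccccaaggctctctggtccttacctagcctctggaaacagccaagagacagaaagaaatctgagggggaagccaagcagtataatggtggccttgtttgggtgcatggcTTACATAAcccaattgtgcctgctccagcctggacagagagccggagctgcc
This motif was found in 40.7% of 32851 promoter windows of 300 bases. The STAT6-type motif, TTC and GAA with 4 bases of any kind between them, which reads the same on both strands, was not among the letters of the Chil1 window and was found in 6.95% of all windows. The GAS-type motif TTCNNNGAA, with a share of 8.3%, matched the window of 1 gene of the set, Chil3. A motif match is a description of the letters and not a site of binding.

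Markers of other cells were read beside Chil1, which neutrophils also express. Of 13 neutrophil markers used, 10 had a count, Ly6g and Mpo were at 0 in all libraries, and their sum was 13.5 to 25.8 CPM in control mice and 11.5 to 33.8 CPM in diseased-BWF1 mice. The summed monocyte list, with 8 of 9 markers detected, was at 109 to 151 CPM in control mice and at 359 to 461 CPM in diseased-BWF1 mice. It includes Hp, encoding haptoglobin, with a log2 fold change of 1.98 that was called by edgeR (adjusted p = 0.0192). Ly6c2, a defining monocyte marker, had 1 count in control 1 and 0 elsewhere. The part of the monocyte list in the Chil1 result was not tested.

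Chil3, the chitinase-like protein also called Ym1, had 1, 1 and 0 counts in control libraries and 0, 1 and 1 in diseased-BWF1 libraries. It shares 12.95% of its 75-base words with Chil4 and Gm6522, and Chil4 had 0 counts in every library. Of 10 listed chitinases and chitinase-like genes, 3 were tested. Ctbs, a lysosomal chitobiase, had a log2 fold change of 0.25 (SE 0.19, adjusted p = 0.625, edgeR). Chid1, a chitinase domain protein, had one of -0.10 (SE 0.18, adjusted p = 0.848, edgeR). Chil1 was the only one of these 3 called, and the other 7 genes of the list, the true chitinases Chia1 and Chit1 among them, were below the filter.

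Retnla, which encodes the secreted resistin-like protein RELM alpha, is at chr16:48842609-48844461 on the plus strand. Its upstream 250 bases, chr16:48842359-48842608, are shown because Retnla was the one gene of the set whose window held the STAT6-type motif. Capitals mark this motif at position -145 and C/EBP-type matches at -222, -196 and -134.
Retnla: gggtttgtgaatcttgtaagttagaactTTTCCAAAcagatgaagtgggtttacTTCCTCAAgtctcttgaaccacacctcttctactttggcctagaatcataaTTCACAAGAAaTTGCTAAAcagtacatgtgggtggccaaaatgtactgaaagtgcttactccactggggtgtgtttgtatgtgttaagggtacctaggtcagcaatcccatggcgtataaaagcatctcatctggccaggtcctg
Of the 9 genes, 6 had a promoter window in the table used, and those of Arg1, Arg2 and Nos2 were not used here.

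Retnla had 1851, 4844 and 3077 normalized counts in control mice and 3083, 425.5 and 52.4 in diseased-BWF1 mice. Diseased mouse 1 lay inside the control range, and diseased mice 2 and 3 lay below it. The highest mouse exceeded the lowest 2.62-fold among control mice and 58.8-fold among diseased-BWF1 mice. The means were 3257 ± 1504 and 1187 ± 1652 (SD, n = 3 each), and the log2 fold change was -1.46 (SE 1.14, 95% interval -4.13 to 1.22, adjusted p = 0.645, edgeR). Without diseased mouse 1 the log2 fold change was -3.78 (adjusted p = 0.21, edgeR), within a range of 0.21 to 1.0 over 16 alternatives. The 9 small PM markers used, without Retnla, summed to 760 to 1001 CPM in control mice and 320 to 693 CPM in diseased-BWF1 mice. Mrc1 and Folr2 made up the lower sum, and without them the other 7 markers summed to 39.8 to 319.5 CPM and 77.8 to 380.2 CPM, with overlapping groups. Ccr2, Irf4, H2-Aa, H2-Ab1 and H2-Eb1 of the same list had log2 fold changes from 0.01 (H2-Aa) to 1.43 (Ccr2), none of them called. Cd226 and Ciita were below the filter. Ciita had 16, 8 and 5 counts in control libraries and 13, 4 and 3 in diseased-BWF1 libraries. The part of this list in the Retnla values was not tested. The other resistin-like genes Retn, Retnlb and Retnlg had at most 2 counts.

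Ear2, an eosinophil-associated ribonuclease that macrophages also express, had 0, 0 and 2 counts in control libraries and 0, 2 and 3 in diseased-BWF1 libraries. Of its 75-base words, 23.4% occur in Ear1, Ear10 or related pseudogenes, so that its counts are uncertain. Of 7 eosinophil markers, Epx, Prg2, Prg3 and Ear6 were at 0 in all libraries, and the other 3 had counts. The list summed to 2.13 to 3.915 CPM in control mice and 1.58 to 4.25 CPM in diseased-BWF1 mice. Rnase4, the only tested gene among 10 listed ribonucleases, had a log2 fold change of 0.56 (SE 0.46, adjusted p = 0.662, edgeR).

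Cd38, an ectoenzyme that consumes NAD and that the study lists among markers of classical activation, is at chr5:43868809-43912374. It had 948, 1018 and 1748 normalized counts in control mice and 529, 1046 and 1648 in diseased-BWF1 mice. The groups overlapped, with diseased mouse 1 the lowest of all 6. The log2 fold change was -0.22 (SE 0.42, 95% interval -1.19 to 0.76, adjusted p = 0.869, edgeR). Of 5 listed NAD and nucleotide ectoenzymes, 4 were tested and 1 was called, beside 0.819% of all tested genes called lower. This was Enpp1, which hydrolyses extracellular nucleotides. It had 105, 149 and 114 normalized counts in control mice and 6.64, 15.2 and 1.01 in diseased-BWF1 mice, with no overlap. Its log2 fold change was -4.0 (SE 0.55, adjusted p = 0.0263, edgeR), and it was called in 2 of 6 fits that each left out 1 mouse. Bst1, the closest relative of Cd38, had a log2 fold change of -0.34 (SE 0.18, adjusted p = 0.481, edgeR), and Nt5e had one of 0.43 (SE 0.20, adjusted p = 0.419, edgeR).

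Il4ra, the receptor chain shared by interleukin-4 and interleukin-13, is at chr7:125552271-125579474. It had 300.4, 148 and 271 normalized counts in control mice and 235, 239.7 and 476 in diseased-BWF1 mice. The groups overlapped, and diseased mouse 3 was the highest of all 6. The log2 fold change was 0.39 (SE 0.35, 95% interval -0.44 to 1.22, adjusted p = 0.701, edgeR). Of 18 listed genes of this receptor pathway, 13 were tested and none was called by edgeR or DESeq2. An unadjusted p under 0.05 in edgeR was found for 3, beside 13.2% of all tested genes. Il13ra1, the partner chain that completes the interleukin-13 receptor, had 187, 119 and 123 normalized counts in control mice and 194, 260 and 229 in diseased-BWF1 mice. All diseased mice were higher (log2 fold change 0.66, SE 0.21, adjusted p = 0.235, edgeR), and so they were for Klf4, a transcription factor of the pathway (0.65, SE 0.20, adjusted p = 0.224, edgeR). Groups did not overlap for these 2 of the 13 genes (15.4%). Over all tested genes, 20.9% had no overlap, and 9.81% were higher without overlap. The list had a median log2 fold change of 0.35, beside 0.01 over all tested genes. Stat6 itself had a log2 fold change of -0.02 (SE 0.13, adjusted p = 0.975, edgeR). The ligand genes Il4 and Il13 were below the filter.

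**Figure D3:**
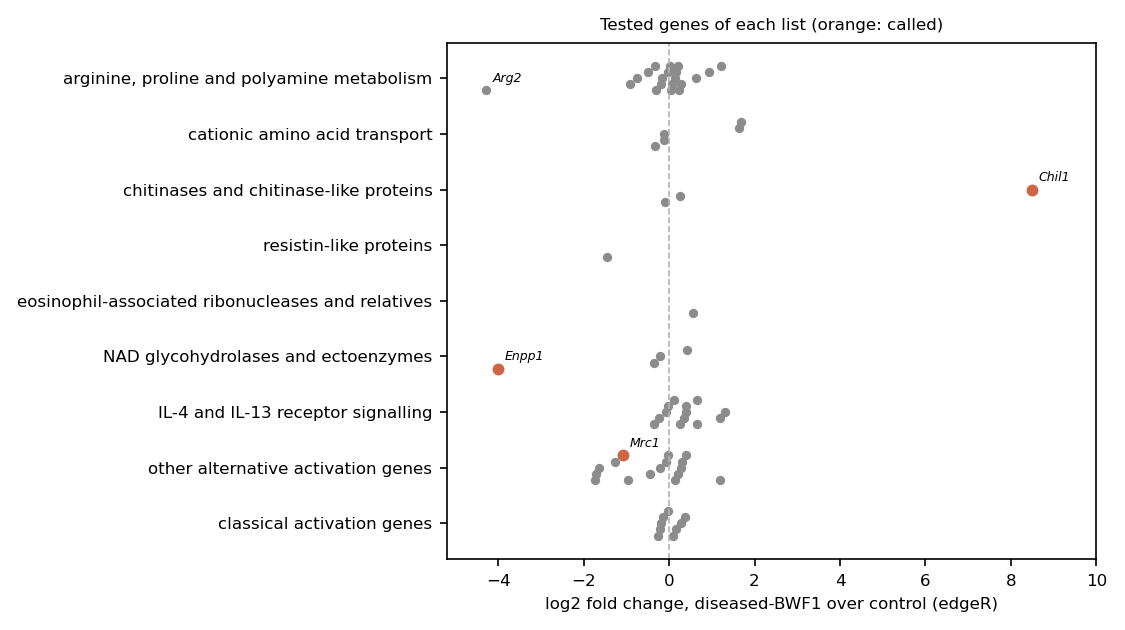
log2 fold change of diseased-BWF1 over control mice (x axis) for each tested gene of the 9 lists of related genes (y axis), with called genes in orange. 3 genes are called across the lists, Chil1 higher and Enpp1 and Mrc1 lower, and Arg2 at -4.28 is named without being called. The lists of Chil1, Enpp1 and Mrc1 hold 3, 4 and 16 tested genes. Of all 10505 genes tested, 0.4% were called higher and 0.819% lower.

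Among 22 other alternative activation genes, 16 were tested and 1 was called, beside 0.819% of all tested genes called lower. Mrc1, the mannose receptor, had a log2 fold change of -1.08 (SE 0.18, adjusted p = 0.044, edgeR), and it was called in 1 of 6 fits that each left out 1 mouse. Igf1, a growth factor of tissue macrophages, had 919, 1040 and 564 normalized counts in control mice and 357, 242 and 168 in diseased-BWF1 mice. All diseased mice were lower, but the call was missed (log2 fold change -1.72, SE 0.33, adjusted p = 0.0633, edgeR). Tgm2, a transglutaminase induced by interleukin-4, had 132, 122 and 118 normalized counts in control mice and 270, 199 and 382 in diseased-BWF1 mice. It was higher in every diseased mouse and was not called (1.19, SE 0.23, adjusted p = 0.0718, edgeR). The list had a median log2 fold change of -0.13. DESeq2 called 1 of its genes higher and 4 lower, beside 1.27% and 2.28% of all tested genes. Groups did not overlap for 7 of the 16 genes (43.8%), 6 of them lower, beside 20.9% and 11.1% of all tested genes. An unadjusted p under 0.05 in edgeR was found for 7, beside 13.2% of all tested genes.

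Of 23 classical activation genes, 9 were tested and none was called by edgeR or DESeq2. Of the 9, 0 had an unadjusted p under 0.05 in edgeR and 0 were without overlap between the groups. Over all tested genes these shares were 13.2% and 20.9%. The median log2 fold change was -0.03. Cd86 and Cd80, costimulatory molecules, had log2 fold changes of 0.37 (SE 0.23, adjusted p = 0.542, edgeR) and 0.28 (SE 0.24, adjusted p = 0.681, edgeR). The 14 genes below the filter had at most 52 counts, reached by Il6, whose counts were 6, 7 and 6 in control libraries and 28, 52 and 2 in diseased-BWF1 libraries.

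**Figure D4:**
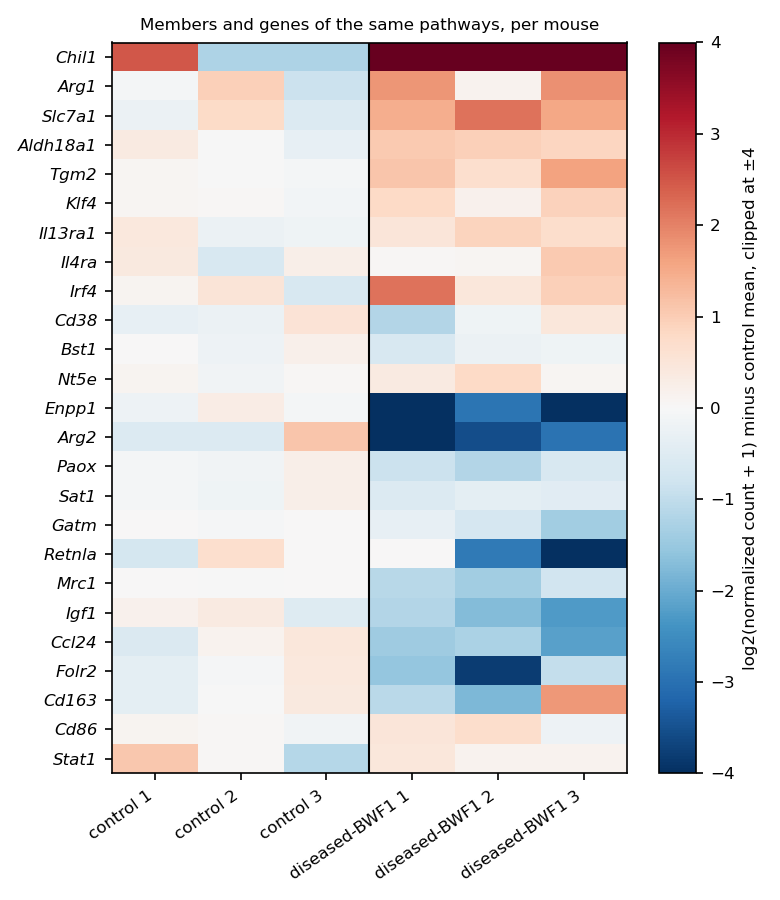
log2(normalized count + 1) minus the control mean, clipped at 4 in either direction, for 25 genes (rows) chosen after their values were seen, in each of the 6 mice (columns). Chil1 is high in the diseased-BWF1 mice, Arg2 and Enpp1 are low in them, and Retnla is low in diseased mice 2 and 3 but not in diseased mouse 1.

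Levels were compared between genes as CPM per kilobase of transcript. In control mice Retnla had the highest mean at 1436, followed by Cd38 at 100.1, Arg1 at 76.8, Il4ra at 12.1, Arg2 at 9.999 and Chil1 at 0.645. In diseased-BWF1 mice the order was Retnla at 522, Chil1 at 277, Arg1 at 179, Cd38 at 86.2, Il4ra at 15.8 and Arg2 at 0.495. Among control mice the ranges of Cd38 and Arg1 overlapped, as did those of Il4ra and Arg2. Among diseased-BWF1 mice the range of Retnla, 22.9 to 1357, covered those of Chil1, Arg1 and Cd38.

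**Figure D5:**
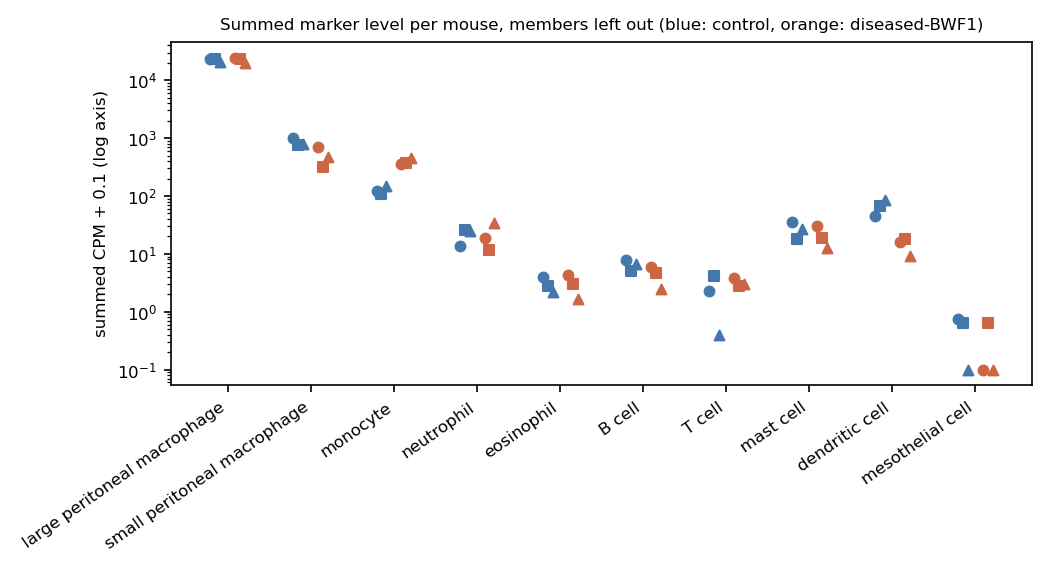
Summed CPM + 0.1 (y axis, log scale) of marker lists for 10 cell types (x axis) in control mice (blue) and diseased-BWF1 mice (orange), with the 9 genes of the set left out. Large PM markers lie near the top in all mice, monocyte markers are higher in the diseased-BWF1 mice, and the dendritic cell sum is lower in them through Cd209a alone.

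Dendritic cell markers, 5 of 6 detected, summed to 44.2 to 85.1 CPM in control mice and 9.23 to 18.1 CPM in diseased-BWF1 mice. Most of the control sum was Cd209a, a lectin gene whose log2 fold change of -4.34 was called (adjusted p = 0.0117, edgeR). Without Cd209a the other 5 markers summed to 8.92 to 10.9 CPM in control mice and 7.91 to 13.8 CPM in diseased-BWF1 mice, and the groups overlapped. Zbtb46, a transcription factor of dendritic cells, differed by 0.41 on the log2 scale in the other direction and was not called (adjusted p = 0.652, edgeR). Of this list, Cd209a was thus the marker that was lower together with Arg2, and its part in the Arg2 values was not tested.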

How the data were processed

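RNA of sorted PMs from 3 control and 3 diseased-BWF1 mice was analysed, with 1 library per mouse and total counts of 3629901 to 5003360. The deposited values are whole numbers per RefSeq transcript record, without normalization, and were treated as estimated counts, since the submitters' processing notes name Salmon 0.8.0, with no role, beside DESeq2 and GRCm38.p6. Of 107193 records, 86466 were matched to 32879 genes and summed per gene symbol, and the 20727 unmatched records were left out. How reads shared by near-identical genes were counted is not given in the sources used here.

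Groups were taken from the sample labels. Genes were tested in R 4.3.3 with edgeR 4.0.16 (filterByExpr, TMM, estimateDisp, glmQLFit, glmQLFTest), all 6 libraries, no covariate and Benjamini-Hochberg adjustment over 10505 genes. A call needed an adjusted p below 0.05 and a 1.5-fold change or more. Single values were tested with an exact two-sided permutation test. P-values measure the spread between these mice. Alternatives included DESeq2 1.42.0, limma 3.58.1 (voom), other filters, the replicate number as a block, age, and each mouse left out. The code was tested on simulated data. Named genes were the 9 genes, called genes of each list and its 2 smallest p, with those named otherwise said to be so, and Odc1, Stat6, Il6 and Vti1b were also named after their values were seen. The members and lists were chosen with earlier results of these data known. Some genes that the rule covers are left out of the text. Promoter sequences were read from RefSeq, GRCm38.p6.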

Additional observations from a re-analysis of the deposited data

How the results depend on the processing

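The 128 genes called became 372 with DESeq2, 259 without the low-count filter, 84 with at least 10 counts in every library, 38 with the replicate block, 16 with curated mRNA records alone, 13 with each record tested on its own and 64 with unmatched records kept, an alternative chosen after seeing the data. Leaving out each mouse gave 21 to 51. Of the 9 genes, 1 was called, and 2 were with DESeq2 or without the filter (Chil1 and Arg2), and 0 with at least 10 counts in every library, where neither could be tested, or with each record on its own, where 1280 of 20332 records had an unadjusted p under 0.05 and Chil1 had a log2 fold change of 8.49 (adjusted p = 0.15). Same-numbered mice are different animals, so that the numbers were not taken to pair them. Their deviations correlated at 0.117, 0.006 and 0.157. Those of differently numbered mice correlated at -0.144 to 0.057, so that 0.117 and 0.157 were above that range. With the replicate block Chil1 stayed called (adjusted p = 0.0323, edgeR). With each mouse left out, Cd38 ranged from -0.66 to 0.12 and Il4ra from -0.022 to 0.58 (log2 fold change). Direction reversed for Cd38 without control 3 (0.12) and without diseased-BWF1 1 (0.11), and for Il4ra without diseased-BWF1 3 (-0.022), while 91 of 94 values kept theirs. The cause was not tested. Depth limits Chil3, Ear2 and Nos2.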

Other observations

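Genes nearest in pattern were found by the root mean square difference of centred log2 CPM over the 6 libraries, among 10505 genes tested. Il4ra was nearest to Epha2, an ephrin receptor gene, at 0.10, with normalized counts of 647, 320 and 687 in control mice and 487, 545 and 979 in diseased-BWF1 mice, and then to Zfp607b at 0.18. Cd38 was nearest to Rtl8a at 0.17 and Mctp2 at 0.19. Arg1 was nearest to Gm38485 and Gm36587, both at 0.41. Arg2 was nearest to Mlph at 0.52 and Mmp27 at 0.61, and Retnla to Glce and Reps2, both at 0.72. Chil1, whose own SD over the libraries was the largest of the 6 at 4.52 (log2 CPM), was nearest to Gm36227 at 1.80 and Col22a1 at 1.81. Gm36227 had 3.31, 4.12 and 1.14 normalized counts in control mice and 233, 228.5 and 304 in diseased-BWF1 mice. Col22a1, a collagen gene, had 0 counts in all control libraries and 95.7, 171 and 72.6 normalized counts in diseased-BWF1 mice.

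The genes within 200000 bases of 4 of the genes were also read, a choice made after their values were seen. Around Chil1, 2 of 15 genes were tested and 0 were called by edgeR. Around Arg2, 8 of 12 were tested and 1 was called, lower in diseased-BWF1 mice. Over all tested genes, 1.22% were called and 0.819% were called lower. The called gene near Arg2 was the long non-coding RNA Gm40462, which lies inside the span of Arg2 at chr12:79140130-79148676. It had counts of 57, 59 and 53 in control libraries and 27, 18 and 17 in diseased-BWF1 libraries. It fell by 1.46 on the log2 scale (SE 0.25, adjusted p = 0.0462, edgeR). Its strand is not given in the table used here, so that its counts and Arg2 transcription may not be separate.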
